A study of Mus musculus with 12 samples.

Results

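The cytosolic nucleic acid sensors examined here were 9 mouse genes, namely Cgas, Sting1, Trex1, Tbk1, Irf3, Ifih1, Dhx58, Mavs and Aim2. They were picked by gene symbol from the platform annotation, and for each gene the probe set with the highest mean log2 value over the 12 arrays was to be taken. This rule had no choice to make, since 8 members each had 1 probe set of their own and Trex1 was read by a single probe set that it shares with its neighbour Atrip. The 8 members stand among 30098 genes that a probe set of 1 symbol measured. The set was proposed with the rise of Cgas in 3s cells and of Ifih1 in 30s cells already known, so the tests of those 2 genes describe where they fall among all genes and are not independent evidence.

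Expression was measured on Affymetrix Mouse Transcriptome Array 1.0 in 2 lymphoma lines established from spleen of C57BL6/CBA mice, each with vehicle and with IFNβ, in 4 groups of 3 cultures. The 3s line came from mice that carried Mx1Cre+, Rx1fl/fl, EµMyc and p53+/-, and the 30s line from mice that carried MX1Cre+, Rx1WT/WT, EµMyc and p53+/-, where Rx1 is Runx1. Both lines therefore express Myc from the immunoglobulin heavy-chain enhancer and Cre from the interferon-responsive Mx1 promoter. Cultures received 50 U/ml IFNβ or vehicle (PBS with 0.1% BSA) for 72 h, were replated in fresh medium and were harvested after 6 further days. IFNβ thus triggers Cre in both lines but can excise Runx1 only from 3s cells. The 30s cells serve as the control for responses to IFNβ and Cre alone. Each genotype is represented by 1 line, so genotype and line cannot be told apart when 3s is set against 30s. This holds for the difference of the IFNβ effects as well. The paper describes 3s as p53 null.

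All values were deposited as log2 values after robust multi-array average (RMA) normalisation. The 12 arrays correlated at 0.99 to 0.999, and their medians lay between 5.43 and 5.49. The 6 B cell markers measured lay between 9.76 and 15.06 on every array, whereas the 8 T and NK cell markers reached 5.77 at most and the 8 myeloid and dendritic cell markers 5.89 at most. Of 4 stromal and endothelial markers only Pecam1 was bright, at 9.77 to 10.12, and it is also carried by blood cells. No marker of these 5 lists passed the test for IFNβ in either line. The 23 background probe sets had array medians of 3.37 to 3.52 and a highest single value of 6.69. Runx1 itself read 7.90 ± 0.11 with vehicle and 7.88 ± 0.18 after IFNβ in 3s cells, and 8.24 ± 0.12 and 8.32 ± 0.11 in 30s cells (SD, n = 3). The probe set did not register excision in 3s cells (log2 fold change -0.02, adjusted p = 0.992, limma), and no source read for this work says whether its probes cover the excised exon. In bulk RNA a lower value from fewer cells that express a gene cannot be told apart from less RNA per cell.

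Cells detect DNA in the cytosol, and viral RNA, as a sign of infection or damage. Cgas binds double-stranded DNA and makes the messenger cyclic GMP-AMP, which activates the membrane adaptor Sting1. The helicases Ifih1 (MDA5) and Ddx58 (RIG-I) bind viral RNA and engage Mavs on mitochondria. Both routes converge on the kinase Tbk1 and the transcription factor Irf3, which switch on type I interferon genes. Aim2 binds DNA too but assembles an inflammasome that activates caspase-1, and Trex1 degrades cytosolic DNA before it is sensed.

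Promoter sequences are shown for Cgas and Ifih1 because these were the 2 members that changed after IFNβ, Cgas in the line with excisable Runx1 and Ifih1 in the control line. RefSeq (GRCm38.p6) gave a window of 250 bases before to 50 after the start for 7 of the 9 members. The motifs searched on both strands were TGTGGT and TGCGGT, the letters Runx proteins are known to bind, and AANNGAAA, the core read by interferon regulatory factors. Of 32851 windows, 16.8% held TGTGGT, 6.45% held TGCGGT and 23.9% held AANNGAAA. The 250 bases upstream of Cgas lie at chr9:78443238-78443487 on the minus strand and hold 1 TGCGGT on the gene's own strand, at position -118 from the start, shown in capitals.
Cgas upstream: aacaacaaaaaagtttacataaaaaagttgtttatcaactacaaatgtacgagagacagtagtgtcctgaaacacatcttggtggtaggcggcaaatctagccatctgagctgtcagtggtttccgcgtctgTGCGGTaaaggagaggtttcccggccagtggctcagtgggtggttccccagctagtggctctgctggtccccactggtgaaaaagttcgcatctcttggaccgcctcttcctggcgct
The Ifih1 window held 2 overlapping AANNGAAA matches just after the start, at positions 29 and 35, and none of the Runx letters. A stretch of 24 bases at chr2:62646212-62646235 on the minus strand shows both, with the matches in capitals.
Ifih1 IRF core: gagaagagAATCGAAACAGAAAcc
The bases before the Ifih1 start, at chr2:62646256-62646505 on the minus strand, are given for comparison with those of Cgas and hold no match.
Ifih1 upstream: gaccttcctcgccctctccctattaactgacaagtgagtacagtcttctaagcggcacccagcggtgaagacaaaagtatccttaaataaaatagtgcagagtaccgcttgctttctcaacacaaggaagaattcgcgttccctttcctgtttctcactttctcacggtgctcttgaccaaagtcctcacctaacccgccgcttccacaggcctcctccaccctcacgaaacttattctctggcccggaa
Irf3 was the only other member with a match, 1 TGCGGT at position -37. These matches describe letters and are no evidence of binding.

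IFNβ raised 1 of the 8 measured members in each line, Cgas in 3s cells and Ifih1 in the 30s control. Across all genes 1.02% passed the test in 3s cells (307 of 30098, Benjamini-Hochberg adjusted p under 0.05, limma) and 1.15% in 30s cells. The effect of IFNβ differed between the lines for 1 member, Cgas, against 1.02% of all genes. With vehicle alone the lines differed in 4 of the 8 members, 3 higher and 1 lower in 3s cells, against 24.9% of all genes. All 8 members have a mean log2 value above 6. When only the 12822 such genes were tested, 53.2% of them differed, so 4 of 8 is no result about the members. Because the 3s effect, the 30s effect and their difference share arrays, they are not independent of one another.

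**Figure D1:**
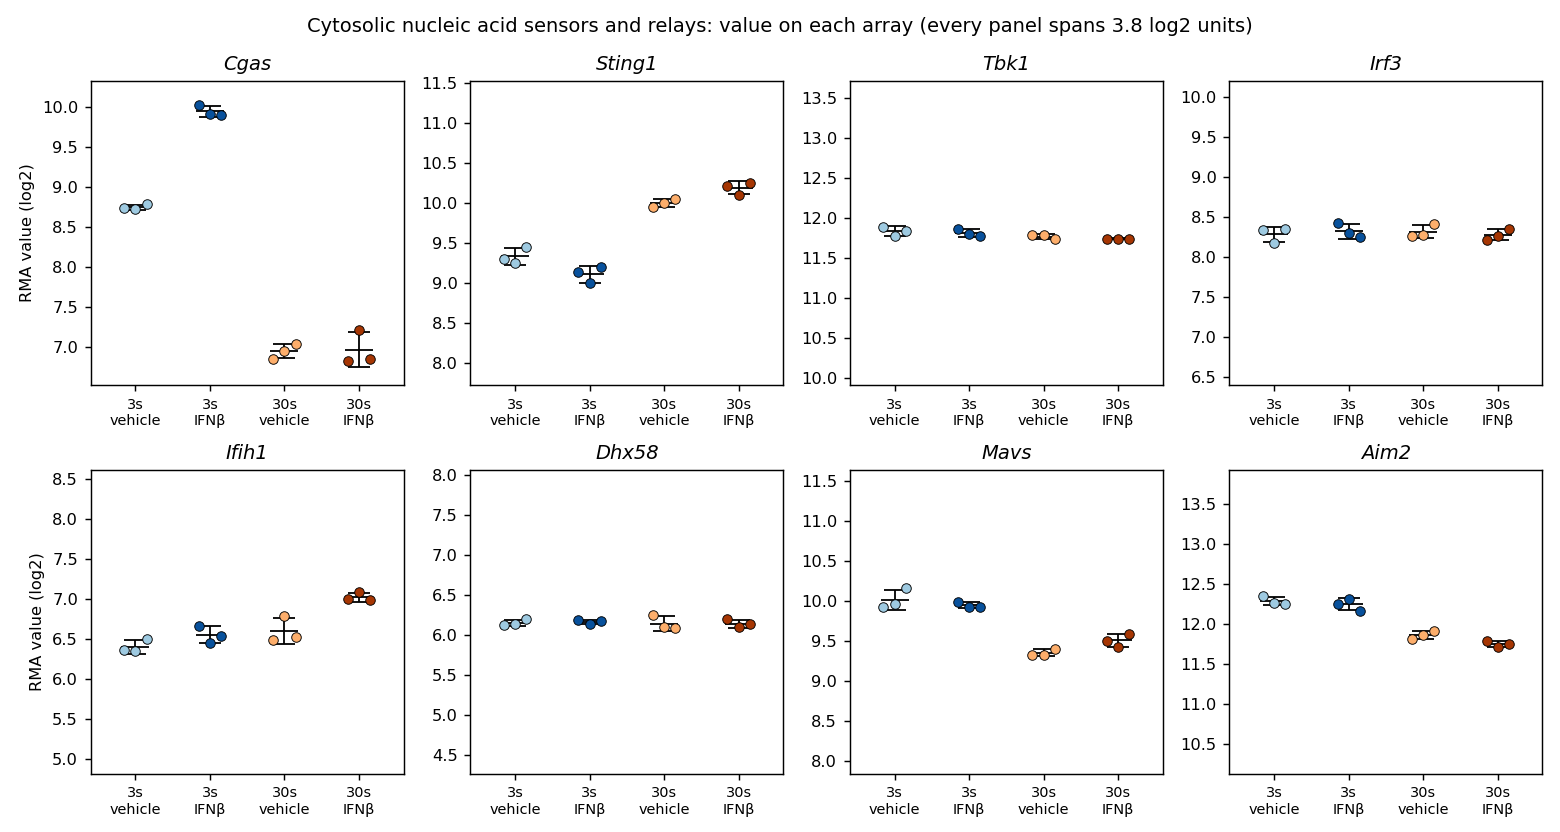
RMA log2 value (vertical axis) of the 8 members with their own probe set on each of the 12 arrays, by line and treatment. Points are cultures, bars are the mean ± SD (n = 3), and every panel spans the same number of log2 units, so the step of Cgas within 3s cells and between the lines stands out from the flat Tbk1, Irf3 and Dhx58.

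Cgas, the DNA sensor, was the member with the largest change after IFNβ in 3s cells. With vehicle it measured 8.74, 8.73 and 8.79, and after IFNβ it measured 10.03, 9.92 and 9.90. Every treated 3s culture was above every vehicle culture, with a gap far wider than the spread within either group. The log2 fold change was 1.20 (SE 0.0926, 95% interval 1.00 to 1.40), or 2.30-fold, with an adjusted p of 8.1e-05 by limma.

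In 30s cells Cgas measured 6.86, 6.96 and 7.04 with vehicle and 6.83, 7.22 and 6.86 after IFNβ, and these groups overlapped. Their difference was 0.02 on the log2 scale (95% interval -0.19 to 0.22). The effect was larger in 3s than in 30s cells by 1.18 log2 units (95% interval 0.90 to 1.47, adjusted p = 0.0022, limma). Without treatment Cgas was already 3.48-fold higher in 3s than in 30s cells (log2 difference 1.80, 95% interval 1.60 to 2.00, adjusted p = 8.53e-08, limma). All 30s readings of Cgas lay only a little above 6.69, the highest background reading, which limits what a small change there can show. From low to high, the levels ran from 30s cells, whose treated and control cultures overlapped, through 3s vehicle to 3s IFNβ, with no overlap at the last 2 steps.

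The 10 nearest measured protein-coding neighbours of Cgas on chromosome 9 had log2 fold changes of -0.13 to 0.34 in 3s cells, and 0 passed the test by limma. Against 1.02% of all genes called, 0 of 10 is no result about the neighbourhood. Unadjusted p by limma was under 0.05 for 3 of them, all higher after IFNβ. These were Ddx43 (0.34, adjusted p = 0.0551), Mto1 (0.25) and Slc17a5 (0.20).

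The genes with profiles most like that of Cgas over the 12 arrays, measured as the root mean square difference between profiles each centred on its own mean, were Afdn, Enpep, Igkv4-58, Pdia5 and Arhgef12. Their distances were 0.252 to 0.321, where a median gene was at 1.285. Afdn, which encodes the junction protein afadin, rose by 0.80 in 3s cells after IFNβ (adjusted p = 0.000179, limma) and measured 0.27 lower in 30s cells (log2 fold change -0.27, adjusted p = 0.0956). The 30s readings of Afdn, 6.48 to 6.63 with vehicle and 6.25 to 6.31 after IFNβ, lay within the background range. Enpep, a surface aminopeptidase found on early B cells, differed from Cgas in that it rose in both lines, by 0.82 in 3s and 0.53 in 30s cells, in the latter from readings of 6.09 to 6.28 within the background range. Arhgef12 also departed from Cgas, with a log2 fold change of -0.33 in 30s cells (adjusted p = 0.0447, limma), to readings of 6.52 to 6.58 within the background range. In the same cells Igkv4-58 gave -0.64 (adjusted p = 0.0898, limma) and Pdia5 -0.08 (adjusted p = 0.836, limma). Igkv4-58 belongs to a family of closely alike immunoglobulin segments, so its probe set is uncertain.

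Sting1, the adaptor that carries the Cgas signal, ran opposite to Cgas between the lines. It measured 9.29, 9.24 and 9.45 in 3s cells with vehicle and 9.13, 8.99 and 9.19 after IFNβ. In 30s cells it measured 9.95, 10.00 and 10.05 with vehicle and 10.21, 10.10 and 10.25 after IFNβ. All treated 3s cultures lay below their controls and all treated 30s cultures lay above theirs, and the 4 groups did not overlap.

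With vehicle, Sting1 was 1.60-fold lower in 3s cells (log2 difference -0.67, 95% interval -0.83 to -0.52, adjusted p = 2.12e-05, limma). Its shifts after IFNβ were small and did not pass the test. They were -0.22 in 3s cells (95% interval -0.37 to -0.07, adjusted p = 0.281, limma) and 0.19 in 30s cells (95% interval 0.03 to 0.34, adjusted p = 0.253, limma). The difference between these effects, -0.41 (95% interval -0.62 to -0.19), had an adjusted p of 0.0945 by limma. It passed when only genes with a mean log2 value above 6 were tested (adjusted p = 0.0469), as it did with the replicate number as a block (adjusted p = 0.0367).

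Tbk1, the kinase on which both sensing routes converge, was flat. Its values ran from 11.77 to 11.89 in 3s cells and from 11.73 to 11.78 in 30s cells over both treatments. Its log2 fold changes after IFNβ were -0.02 (95% interval -0.11 to 0.07) in 3s cells and -0.03 (95% interval -0.12 to 0.07) in 30s cells. Irf3, the transcription factor that Tbk1 phosphorylates, ran from 8.18 to 8.43 in 3s and from 8.22 to 8.42 in 30s cells. Irf3 gave 0.04 (95% interval -0.11 to 0.19) and -0.04 (95% interval -0.19 to 0.11), and all 4 of its groups overlapped. These intervals leave room for changes of up to 0.19 log2 units.

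Ifih1, the RNA helicase, was the only member to pass the test for IFNβ in 30s cells. It measured 6.48, 6.78 and 6.52 with vehicle and 6.99, 7.08 and 6.98 after IFNβ. The treated cultures were all above the controls, although the second control lay closer to them than the others. The other 2 controls lay below 6.69, the highest background reading, so the rise was measured from a level partly in the background range. The log2 fold change was 0.42 (SE 0.0816, 95% interval 0.24 to 0.60), or 1.34-fold, with an adjusted p of 0.0381 by limma. This call was lost in 12 of 24 other settings, with adjusted p up to 0.279, including 8 of the 12 settings in which 1 array was left out. With only the 6 arrays of the 30s line in the fit, 0 of all 30098 genes passed by limma (3799 before adjustment at p under 0.05), while 1 passed the methods' t-test after adjustment. The arrays were the treated 30s replicates 1, 2 and 3 and 30s vehicle replicates 1 and 3, whose omission gave adjusted p of 0.082 to 0.126. They were also 3s IFNβ replicate 3 and 3s vehicle replicates 1 and 2, which enter only through the shared error and gave 0.0515 to 0.0588.

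In 3s cells Ifih1 measured 6.36, 6.34 and 6.50 with vehicle and 6.66, 6.45 and 6.53 after IFNβ, and the groups overlapped. The log2 fold change was 0.15 (95% interval -0.03 to 0.33, adjusted p = 0.739, limma). The effects in the lines differed by -0.27 (95% interval -0.52 to -0.02, adjusted p = 0.408, limma), so the call in 30s cells alone does not show a difference between the lines. All 3s values of Ifih1 lay below that background reading too, which limits what a small difference there can show. The genes with profiles most like Ifih1 were Eif2b4, Slc25a33, Rfxap, Ift172 and Senp8, at distances of 0.087 to 0.101 where a median gene was at 0.254, and none of these 5 passed the test for IFNβ in either line by limma.

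Dhx58 (LGP2), a relative of Ifih1 that modulates its signalling, sat between 6.09 and 6.25 on all 12 arrays. These values lie below the highest background reading, and all 4 groups overlapped. Its log2 fold changes were 0.01 (95% interval -0.10 to 0.13) in 3s cells and 0.00 (95% interval -0.11 to 0.11) in 30s cells.

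Mavs, the mitochondrial adaptor of the RNA route, was higher in 3s cells. It measured 9.92, 9.96 and 10.16 in 3s cells with vehicle and 9.33, 9.32 and 9.40 in 30s cells with vehicle, without overlap. The difference was 0.66 log2 units or 1.59-fold (95% interval 0.52 to 0.81, adjusted p = 1.38e-05, limma). After IFNβ it measured 9.99, 9.92 and 9.93 in 3s cells, which overlapped the controls (log2 fold change -0.07, 95% interval -0.21 to 0.08).

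In 30s cells Mavs measured 9.50, 9.43 and 9.59 after IFNβ, all above the controls, at a log2 fold change of 0.16 (95% interval 0.02 to 0.30) that did not pass the test (adjusted p = 0.306, limma). Mavs and Sting1, the adaptors of the RNA and DNA routes, thus differed between the lines in opposite directions.

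Aim2, the DNA sensor of the inflammasome, was higher in 3s cells as well. It measured 12.35, 12.27 and 12.25 in 3s cells and 11.82, 11.86 and 11.92 in 30s cells, both with vehicle, a 1.34-fold difference (log2 difference 0.42, 95% interval 0.31 to 0.53, adjusted p = 6.32e-05, limma). After IFNβ it measured 12.25, 12.32 and 12.17 in 3s cells (log2 fold change -0.04, 95% interval -0.15 to 0.07) and 11.79, 11.71 and 11.75 in 30s cells. The 30s values were all below their controls by a small margin (log2 fold change -0.12, 95% interval -0.23 to -0.01) that did not pass the test (adjusted p = 0.34, limma).

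Trex1, the exonuclease that clears cytosolic DNA, could be read only through the probe set it shares with Atrip. That probe set ran from 7.65 to 7.98 over the 12 arrays, and its groups overlapped within each line. The log2 fold changes were 0.05 (95% interval -0.10 to 0.20) in 3s cells and -0.02 (95% interval -0.17 to 0.13) in 30s cells, and 3s exceeded 30s cells by 0.14 with vehicle (adjusted p = 0.24, limma over 65956 probe sets). A change in Trex1 alone would not be told apart from one in Atrip.

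**Figure D2:**
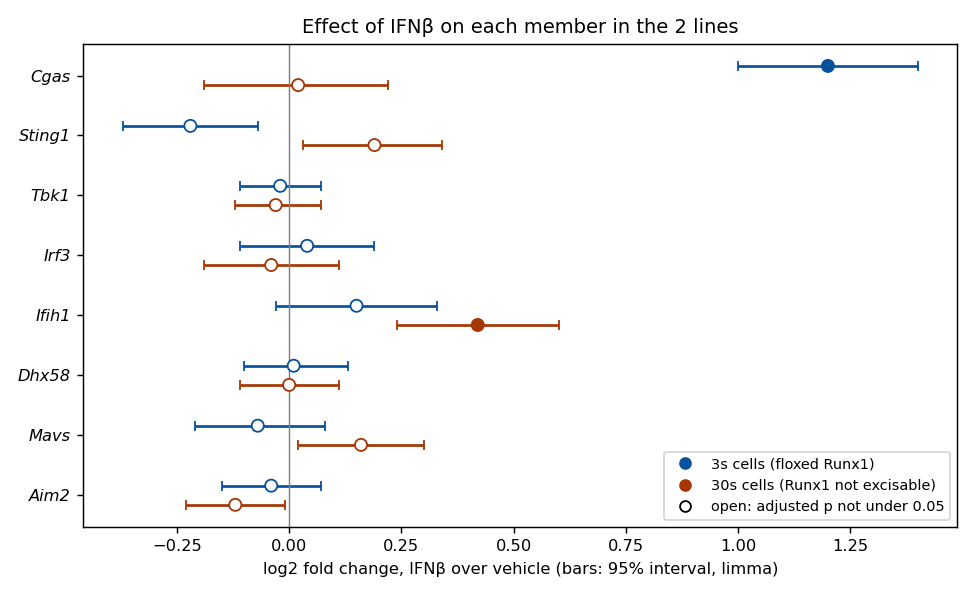
Log2 fold change of IFNβ over vehicle (horizontal axis) for the 8 members in 3s and 30s cells, with 95% limma intervals. Filled points passed the test at adjusted p under 0.05, which only Cgas in 3s cells (1.20) and Ifih1 in 30s cells (0.42) did.

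Beyond the members, 107 of 122 listed genes of these pathways were measured, in 9 lists from other sensors to interferon targets. In 3s cells IFNβ raised 1 and lowered 1 of the 107, or 1.87% against 1.02% of all genes. In 30s cells it raised 3 and lowered 3, or 5.61% against 1.15%. The effects differed between the lines for 4 genes, 2 each way, or 3.74% against 1.02%. These shares depend on signal level. When only genes with a mean log2 value above 6 were tested, 3.09% were called in 3s cells, 5.78% in 30s cells and 3.6% for the difference. In that test 5 listed genes rose and 1 fell in 3s cells, and 3 rose and 3 fell in 30s cells. The effects differed for 3 each way. Fewer than the 107 listed genes have such a mean, and their number was not counted. These counts therefore give no share to set beside those of all genes. Of the 18 interferon targets measured, 0 passed in 3s cells by limma (3 at unadjusted p under 0.05) and 1 passed in 30s cells. With about 1% of all genes called in either line (1.02% and 1.15%), these counts say nothing particular about the list. Among them Isg15, Ifit1, Mx1 and Mx2 read 4.45 to 5.73 on all arrays, within the range of the background probe sets, and so did Ifnb1 itself at 4.61 to 5.12. These 5 genes were singled out as familiar examples after their values were seen. Other targets on the list lay above that range on all arrays, namely Xaf1 (8.77 to 9.57), Bst2 (8.64 to 9.62), Herc6 (9.31 to 10.11) and Parp14 (7.53 to 8.21). Ifit2 did so in 3s cells only (7.21 to 8.05), and the rest of the 18 read within the range.

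Among the other DNA sensors Ifi209, one of the Aim2-like receptors, behaved differently in the lines. In 3s cells it measured 12.77, 12.78 and 12.58 with vehicle and 12.92, 13.04 and 12.96 after IFNβ, and in 30s cells 12.92, 12.86 and 12.92 with vehicle and 12.48, 12.52 and 12.62 after IFNβ. It fell by 0.36 in 30s cells (adjusted p = 0.0182, limma), and its effects differed by 0.62 (95% interval 0.44 to 0.81, adjusted p = 0.00573, limma). The fall of Ifi209 in 30s cells was not called in 7 of 24 other settings, 5 of which left out 1 array of the 30s line (vehicle replicate 1, 2 or 3, or IFNβ replicate 1 or 2, adjusted p 0.0561 to 0.0849), whereas its difference between the lines was called in all 23 settings run. Ifi214 showed a difference of 0.57 (adjusted p = 0.0307, limma), a call lost in 10 of 23 other settings. In 8 of these 1 array was left out (3s IFNβ replicate 2 or 3, or any 30s array), with adjusted p of 0.0596 to 0.0837. These receptors are closely alike in sequence, so their probe sets may share signal. In the RNA list 0 of 13 sensors and helpers passed the test for IFNβ in either line by limma, with 1 at unadjusted p under 0.05 in 3s and 5 in 30s cells. Against 1.02% and 1.15% of all genes called, 0 of 13 is no result about the list.

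Of 10 transcription factors, Irf1 rose by 0.20 from a level within the background range (adjusted p = 0.0455) and Irf8, which acts in B and myeloid cells, fell by 0.25 (adjusted p = 0.0485) in 3s cells by limma. These calls were lost in 18 and 19 of 24 other settings. The Irf8 effect differed between the lines by -0.38 (adjusted p = 0.0332, limma), a call lost in 15 of 23 other settings. In 30s cells the changed genes were Rnaseh2c, a subunit of the enzyme that removes RNA from DNA hybrids (0.42, adjusted p = 0.0353), the receptor chain Ifnar2 (0.32, adjusted p = 0.0182) and the interferon target Xaf1 (0.43, adjusted p = 0.019). The caspase Casp8 (-0.20, adjusted p = 0.0432) and the inflammasome sensor Nlrc4 (-0.46, adjusted p = 0.0489) fell, all by limma. Xaf1 was the interferon target whose effect differed between the lines (-0.62, adjusted p = 0.0158, limma). Each of these 30s calls was lost in 6 to 18 of 24 other settings.

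Before treatment the lines differed widely in these pathways, with 32 genes higher and 22 lower in 3s cells, or 50.5% of the 107 against 24.9% of all genes. With each array centred on its median the split was 36 higher and 15 lower. Of the adaptors and kinases 7 of 12 (58.3%) were higher and 0 lower in 3s cells by limma, with 8 at unadjusted p under 0.05. The 4 with the smallest adjusted p in that list were Azi2, a Tbk1 adaptor (0.73), Traf6 (0.66), Ripk1 (0.60) and Ikbkb (0.53). Of the interferon targets 6 of 18 (33.3%) were higher and 0 lower by limma, with 8 at unadjusted p under 0.05. Ifit2 was among the 6. Its 30s readings of 5.88 to 6.00 lay in the background range. It was therefore at least 1.09 log2 units higher in 3s cells against the highest background reading. The fitted difference, and not this bound, had an adjusted p of 5.96e-07 by limma. Of the DNA sensors beside the members 1 of 11 was higher and 6 lower in 3s cells (63.6% called). Among the lower were the Aim2-like receptor Ifi211 (-0.48, adjusted p = 0.00272, limma) and the nucleic acid sensor Zbp1 (-0.23, adjusted p = 0.0127, limma). Zbp1, at 5.04 to 5.14 in 3s and 5.24 to 5.38 in 30s cells with vehicle, lay within the background range. So did Ifi207, another of the 6, at 5.69 to 5.75 and 5.85 to 6.01. Small differences at such levels are uncertain. The RNA-activated kinase Eif2ak2 (PKR) was 0.44 higher (adjusted p = 3.24e-05, limma) and Irf8 was 0.50 higher (adjusted p = 1.75e-05, limma).

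**Figure D3:**
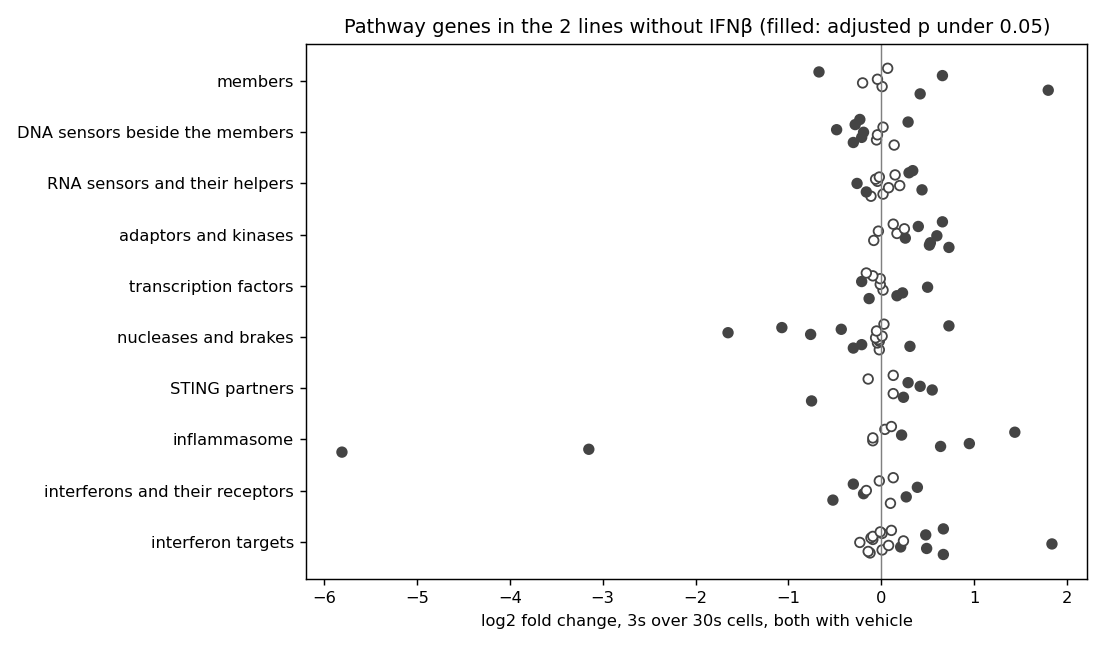
Log2 fold change of 3s over 30s cells, both with vehicle (horizontal axis), for the members and the 9 pathway lists, 1 point per gene. Filled points passed the test at adjusted p under 0.05; the 2 points farthest to the left are Casp1 and Casp4, whose 3s values were in the background range, and Cgas lies at 1.80.

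Some inflammasome genes differed widely between the lines. Casp1, the protease that an inflammasome activates, measured 5.59, 4.75 and 5.29 in 3s and 11.08, 11.02 and 10.94 in 30s cells with vehicle. After IFNβ it measured 5.12, 5.09 and 4.87 in 3s and 11.47, 11.33 and 11.48 in 30s cells. The 3s readings lay within the range of the background probe sets and the 30s readings far above it. The difference can therefore be given only as a bound. Taken against the highest background reading of 6.69, Casp1 was at least 4.32 log2 units higher in 30s than in 3s cells with vehicle. The adjusted p of 6.97e-10 by limma tests the fitted difference between the lines and not this bound.

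Casp4, the related caspase of the non-canonical inflammasome, gave 4.63 to 4.83 in 3s and 7.60 to 8.08 in 30s cells with vehicle. Its 3s readings also lay within the background range, and against the same reading Casp4 was at least 1.18 log2 units higher in 30s cells. Here too the adjusted p, 6.02e-09 by limma, belongs to the fitted difference and not to the bound. Both genes lie on chromosome 9. Nlrc4 was 1.44 higher (adjusted p = 6.79e-07) and Casp8 0.64 higher (adjusted p = 4.84e-07) in 3s cells by limma. Pycard, the adaptor that links Aim2 to Casp1, read 5.96 to 6.48 on all arrays, within the background range, and was named after its values were seen. Aim2 itself was thus higher in the line in which Casp1 read at background.

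**Figure D4:**
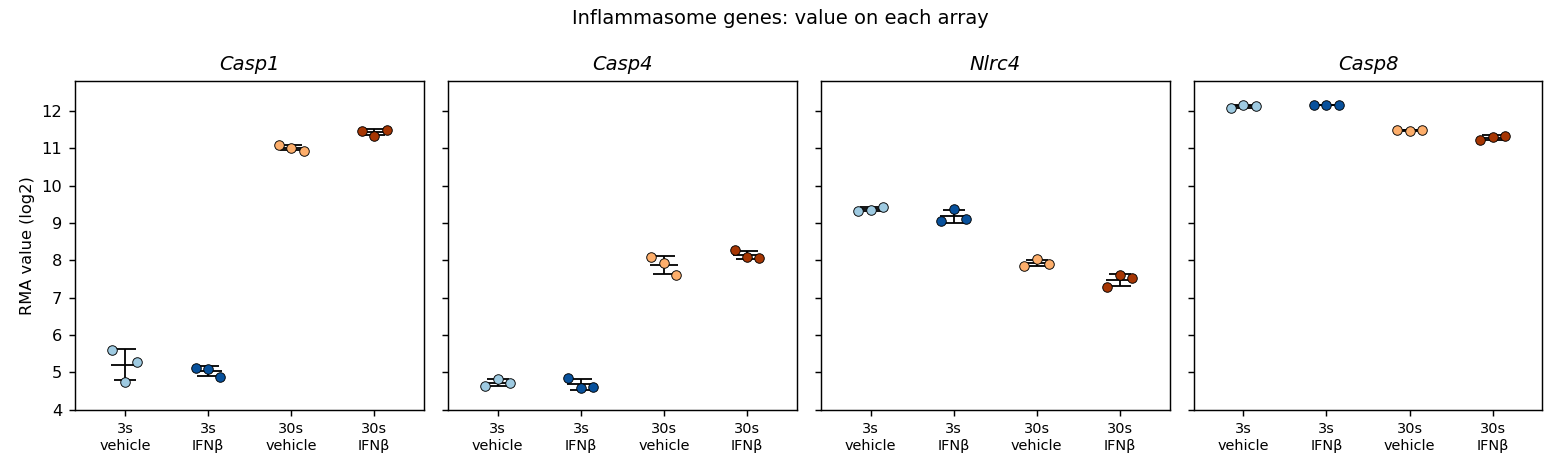
RMA log2 value (vertical axis) of Casp1, Casp4, Nlrc4 and Casp8 on each of the 12 arrays, by line and treatment, with the mean ± SD (n = 3). Each panel is to be read on its own; Casp1 lies between 4.75 and 5.59 in 3s cells and between 10.94 and 11.48 in 30s cells.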

How the data were processed

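The authors hybridised total RNA to the arrays and deposited log2 values per probe set after RMA normalisation; the submitters' processing notes name Affymetrix Expression Console 1.4, and none of the sources read names a genome build. Groups were taken from titles, cell name and treatment, because the genotype entry in the labels follows the treatment in both lines. Of 72688 probe sets, 6732 were controls, 30638 carried 1 symbol (330 updated through RefSeq synonyms), 2176 several and 33142 none. The probe set with the highest mean was kept per gene, giving 30098 genes.

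Group means were fitted to all 12 arrays with limma 3.58.1 in R 4.3.3 (8 residual degrees of freedom, empirical Bayes), and two-sided p-values were Benjamini-Hochberg adjusted over all genes, threshold 0.05. The methods name a t-test, which was run as an alternative. The fitting step was tested on simulated data. With 3 arrays per group, their number limits precision, and p-values measure the spread between cultures of 1 line. No hybridisation batch was known.

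Members and gene lists were chosen with earlier results of these data known. All members are named, and of each list up to 4 genes with the smallest adjusted p among those past the test, the 5 profiles nearest Cgas and Ifih1, and Runx1; exceptions are stated. Alternatives were the arrays fitted, a replicate block, moderation, array weights, the study's thresholds (unadjusted p under 0.05, fold change above 1.25), normalisation, a minimum mean of 6, the probe sets used and leaving out each array. Listed genes without a probe set of their own were not analysed here.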

Additional observations from a re-analysis of the deposited data

Results flagged for a closer look

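Cgas drew attention because its response to IFNβ differed between the lines by a test of the difference itself. The effect in 3s cells exceeded that in 30s cells by 1.18 log2 units (95% interval 0.90 to 1.47, adjusted p = 0.0022, limma), and all 3 treated 3s cultures were above all 3 controls.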

How the results depend on the processing

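The Cgas calls held in every setting run, with a log2 fold change of 1.16 to 1.23 in 3s cells over 24 settings (highest adjusted p 0.0459) and a difference between the lines of 1.11 to 1.31 over 23 (highest adjusted p 0.0198). The 1 member called in 3s cells and the 4 called between the lines with vehicle stayed at 1 and at 4 to 5. In 30s cells the number of members called fell from 1 to 0, losing Ifih1, when only the arrays compared were fitted, with the replicate block, with the methods' t-test and when all probe sets were tested, and ranged from 0 to 1 when single arrays were left out. For the difference between the lines it rose from 1 to 2, adding Sting1, with the replicate block, at the study's thresholds and with a minimum mean of 6. Of all genes, the share called ran from 0.0266% to 3.09% in 3s cells, 0% to 5.78% in 30s cells, 0.558% to 4.1% for the difference and 15.2% to 53.2% between the lines over the settings. The causes were not tested. Replicate numbers showed little sign of pairing the cultures. Deviations of same-numbered arrays correlated at -0.0967 to 0.126 over 18 pairs, 1 of them above 0.1, and 3 of 12 arrays correlated best with their own number. With so few arrays per group, and pairs that also cross the lines, these values cannot settle whether cultures were paired. Fitting only the arrays compared has no form for the difference and was not run there. No direction of a called member reversed. Dhx58, the 3s values of Ifih1 and 2 of its 3 vehicle values in 30s cells lie in the range of background probe sets, so small changes there could not be seen.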

Other observations

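Some genes that restrain sensing, and some partners of Sting1, also differed between the lines with vehicle, in both directions. Among 16 nucleases and brakes, 2 were higher and 6 lower in 3s cells, where 24.9% of all genes differed (14.3% higher and 10.6% lower). When only genes with a mean log2 value above 6 were tested, 53.2% of them differed. The ubiquitin ligase Rnf125, which marks RIG-I for degradation, was lower by 1.65 log2 units (log2 difference -1.65, adjusted p = 8.89e-07, limma), and Tnfaip3 (A20), a brake on NF-kB signalling, was lower too (adjusted p = 1.84e-05, limma). Its 3s readings of 5.86 to 5.96 lay in the background range, so the difference is a bound of at least 0.29 log2 units against the highest background reading of 6.69. Rnaseh2c was lower as well (-0.76, adjusted p = 2.47e-05, limma), whereas Trim30a was higher (0.73, adjusted p = 3.52e-06, limma). Among 8 STING partners 4 were higher and 1 lower, against the same 24.9% of all genes and 53.2% of those with a mean above 6. Neither count is a result about its list. The lower one was Insig1, an endoplasmic reticulum protein of sterol control (-0.75, adjusted p = 4.1e-05, limma), and the higher ones included the calcium sensor Stim1 (0.55, adjusted p = 0.000178, limma). Sting1 itself was lower in the same cells.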
